A study of Mus musculus with 12 samples.

Results

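Collagens are the main structural proteins of the extracellular matrix, and 42 collagen genes were followed here in whole retinas of mice in which Otx2 was deleted from photoreceptors. The members were the protein-coding genes with a collagen chain symbol (Col, a type number, a and a chain number) that had at least 10 counts in at least 3 of the 12 libraries. They were 42 of the 44 such genes counted and of 54146 genes counted in all, and comprised 11 fibrillar, 9 network-forming, 9 FACIT (fibril-associated collagens with interrupted triple helices) and 13 other collagens. The 2 genes left out were Col6a5, with 13 counts at most and 10 or more in 1 library, and Col28a1, with 12 counts at most and 10 or more in 1 library. Just inside the limit were Col10a1, with 6 to 20 counts per library and 10 or more in 9 libraries, and Col6a6, with 6 to 33 counts and 10 or more in 10 libraries. The other 40 members had at least 10 counts in all 12 libraries, and all 42 passed the filter on low counts used for testing.

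Each library held the retina of a single eye of 1 mouse, with the retinal pigmented epithelium (RPE) included in the RNA, and there were 3 mice in each of 4 conditions. The cKO mice were Crx-CreERT2;Otx2 flox/flox on a 129/SV background, in which tamoxifen given once at P30 activates Cre from the Crx promoter, which is active in photoreceptors. They were collected 2 d (P32, mice 4 to 6), 4 d (P34, mice 7 to 9) and 8 d (P38, mice 10 to 12) after the injection, and the control mice (P30, mice 1 to 3) were taken at 0 d. Whether the P30 mice carried the same transgene and alleles is not stated for the RNA samples. Age, tamoxifen and deletion changed together between P30 and the later ages and cannot be told apart. The deletion takes out 1 exon and the transcript is still made, and Otx2, counted over all its exons, had 293 to 328 CPM (counts scaled to library size) in the P30 mice and 307 to 377 CPM in the cKO mice.

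Collagen chains assemble in threes into triple helices, either from copies of a single chain or from different chains of the same type. Fibrillar collagens build fibrils and FACITs decorate their surface, as types II, IX and XI do in the vitreous, while type IV forms the sheets of basement membranes such as the inner limiting membrane, Bruch's membrane and the lens capsule. Type XVIII, a basement membrane collagen that carries endostatin at its end, and type IX are made in the eye by the ciliary epithelium among other cells.

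The stretches before the annotated start sites of the called genes are shown because the model removes a transcription factor. RefSeq gave 36 promoter windows for 33 of the 42 members, and the 250 bases before each start were searched on both strands for TAATCC, the core bound by OTX2 and CRX, for the GC box GGGCGG and for CCAAT, of which the first and last can overlap. TAATCC stood in 0 of the 36 collagen windows and in 6.25% of all 32851 windows, GGGCGG in 21 of 36 and 32.7% of all, and CCAAT in 13 of 36 and 33.8% of all. These are matches of letters in short windows and say nothing of binding. The 5 genes described below as called had 6 windows (Col9a3 had none), of which the 3 with at most 30 bases of annotated exon are printed, 5′ to 3′ on the strand of the gene, with GGGCGG and CCAAT on either strand in capitals. The first belongs to the upstream start of Col9a1 (GRCm38.p6, chr1:24177360-24177609, plus strand, outside the gene) and the second to its internal start (chr1:24194953-24195202, plus strand, within the gene and intronic but for 16 bases). The third precedes the upstream start of Col18a1 (chr10:77166531-77166780, minus strand, with 18 bases in the first annotated exon). The upstream Col9a1 window held 0 matches, the internal one 1 CCAAT, and the Col18a1 window 3 GGGCGG and 1 CCAAT. Counts per gene do not separate the starts.
Col9a1 upstream start: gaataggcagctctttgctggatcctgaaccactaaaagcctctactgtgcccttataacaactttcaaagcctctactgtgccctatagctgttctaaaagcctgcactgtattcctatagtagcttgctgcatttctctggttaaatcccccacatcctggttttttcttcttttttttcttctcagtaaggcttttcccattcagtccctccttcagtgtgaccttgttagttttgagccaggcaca
Col9a1 internal start: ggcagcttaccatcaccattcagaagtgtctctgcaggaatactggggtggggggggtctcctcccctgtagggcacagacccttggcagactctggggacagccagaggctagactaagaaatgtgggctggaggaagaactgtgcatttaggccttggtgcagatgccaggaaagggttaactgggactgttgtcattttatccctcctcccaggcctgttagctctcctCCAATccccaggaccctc
Col18a1 upstream start: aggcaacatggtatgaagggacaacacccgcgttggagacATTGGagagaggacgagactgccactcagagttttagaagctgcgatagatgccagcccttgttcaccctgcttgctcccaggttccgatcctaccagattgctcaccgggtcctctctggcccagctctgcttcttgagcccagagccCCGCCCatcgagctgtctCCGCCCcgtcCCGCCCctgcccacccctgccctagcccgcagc

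Totals on genes ran from 29701483 to 60145034 counts per library, so that 3 counts, taken as the floor, came to 0.0499 to 0.101 CPM, and every member had more than 3 counts in every library. The libraries differed in markers of other eye tissue, and these values come before the results because such tissue also makes collagens. The summed level of 8 lens markers (Cryaa and Crybb2 the most abundant) was 9723, 458 and 33247 CPM in the P30 mice, with 39470, 28550 and 631 in the P32, 234, 640 and 488 in the P34 and 11986, 4720 and 5038 in the P38 mice. The sum of 6 ciliary epithelium markers was 356 to 421 CPM at P30, 317 to 451 at P32, 223 to 232 at P34 and 296 to 425 at P38. Its most abundant genes were Aqp1 and Car14, with means of 162 and 98.8 CPM over the 12 mice. Most distinct within that list was Optc (opticin, a vitreous protein made by the ciliary epithelium), with 73.8 to 99.0 CPM at P30, 37.7 to 113 at P32, 2.47 to 4.06 at P34 and 34.7 to 72.6 at P38. Smooth muscle markers summed to 182 and 199 CPM and melanin genes to 816 and 665 CPM in P30 mice 2 and 3, against 9.97 to 49.3 CPM and 28.9 to 127 CPM in the other 10 mice. Photoreceptor (57744 to 106596 CPM), Müller glia (4202 to 4896 CPM), astrocyte (574 to 817 CPM), endothelial (32.9 to 52.9 CPM) and pericyte (53.4 to 92.0 CPM) sums all stayed within 2-fold over the 12 mice, so neural retina was present in every library. RPE content varied more, since the RPE markers without Rlbp1, which Müller glia also express, summed to 83.5 to 245 CPM at P30, 95.5 to 179 at P32, 132 to 214 at P34 and 125 to 240 at P38. By Xist and Y-linked genes, the 3 P30 mice were female, as were mice 5, 6, 9 and 12, and the other 5 were male.

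Collagen transcripts made up 452 to 2183 CPM per mouse, and most of the range came from type IV. The 6 type IV chains summed to 877, 164 and 1057 CPM in P30 mice 1, 2 and 3, with 764, 1095 and 117 in the P32, 100, 119 and 113 in the P34 and 1736, 1360 and 166 in the P38 mice. They were 56.5 to 79.5% of all collagen transcripts in mice 1, 3, 4, 5, 10 and 11 and 16 to 22.1% in the other 6. Without type IV, the remaining collagens summed to 664 to 739 CPM at P30, 589 to 814 at P32, 352 to 463 at P34 and 447 to 650 at P38, so that the P34 mice lay below all P30 and P32 mice in this sum.

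**Figure D1:**
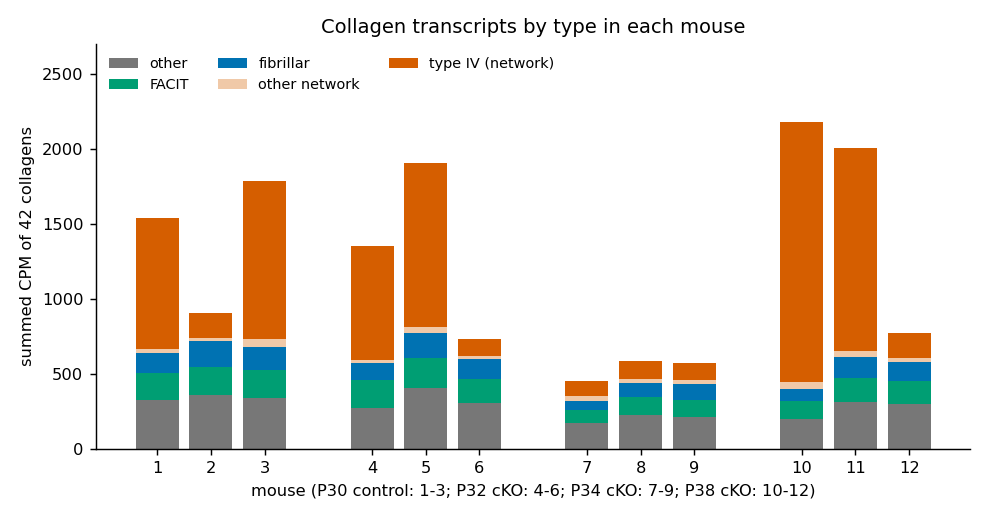
Summed CPM of the 42 collagen genes in each of the 12 mice, stacked by type, with the type IV chains split from the other network collagens. Type IV takes 1736 CPM in P38 mouse 10 and 100 CPM in P34 mouse 7, and the parts below it vary far less.

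Levels can be compared between genes only per length, as CPM per kilobase of annotated exon averaged over the 12 mice. On that scale the order was Col4a1 (39.8), Col4a2 (29.8), Col23a1 (16.4), Col9a1 (12.8), Col6a1 (12.0) and Col18a1 (9.22), followed by Col4a5 (7.55), Col9a3 (5.37), Col9a2 (5.09) and Col20a1 (4.92). Col2a1, the chain of the main vitreous and cartilage fibril, was the most abundant fibrillar gene per length with 2.81 CPM per kilobase. The places of the type IV chains in this order rest on 6 of the 12 mice, and those of the middle genes change with age. At P34 Col9a1 had 6.52 to 7.86 and Col6a1 6.91 to 12.4 CPM per kilobase, and at P30 Col18a1 (12.7 to 14.8) overlapped Col6a1 (10.7 to 16.8). Col23a1, a transmembrane collagen, varied only from 67.0 to 120 CPM over all 12.

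**Figure D2:**
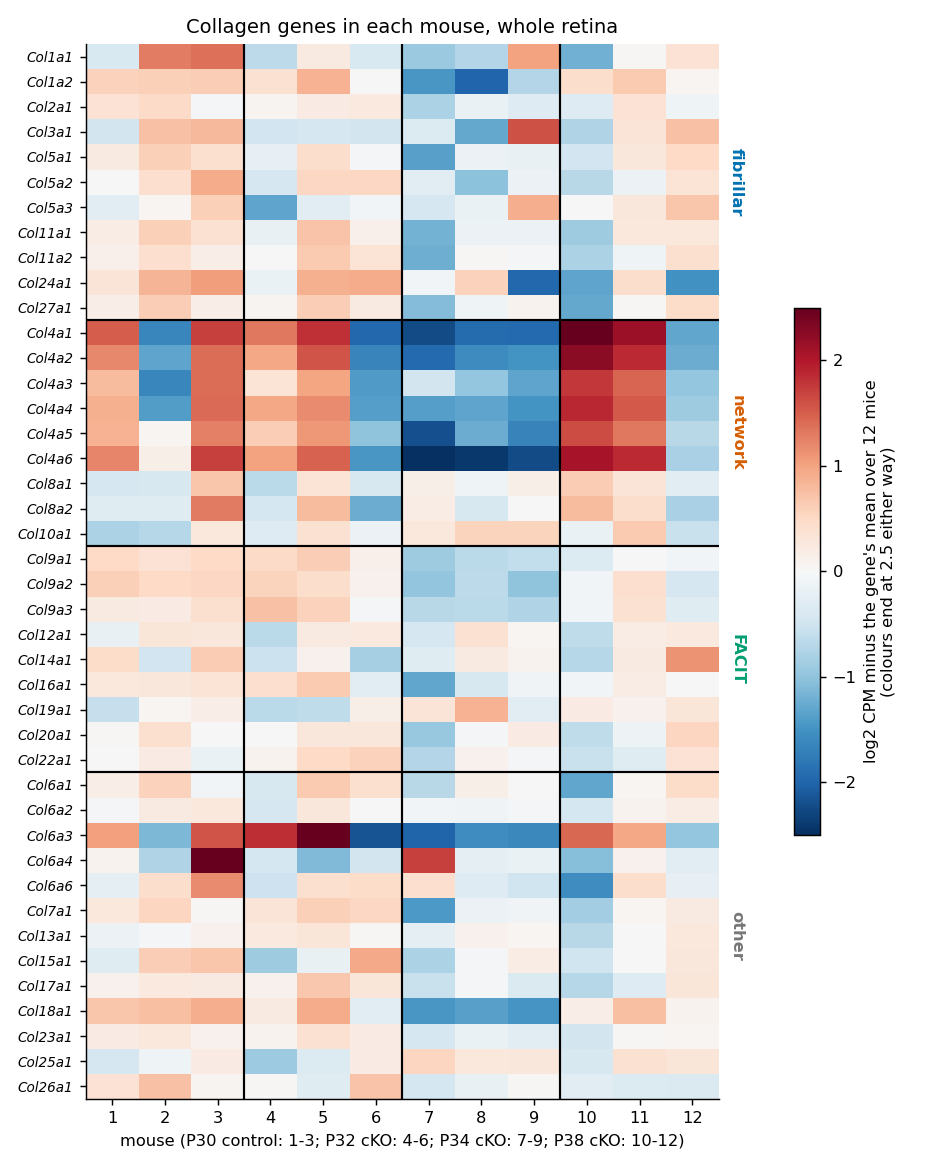
Each of the 42 collagen genes (rows, by type) in each mouse (columns), as log2 CPM minus the mean of that gene over the 12 mice. The type IV rows and Col6a3 lie below their means in the 3 P34 mice and in mice 2, 6 and 12, except for Col4a5 and Col4a6 in mouse 2, while Col1a2, Col9a1 to Col9a3 and Col18a1 are low in the 3 P34 mice.

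At P34, 4 d after tamoxifen, 4 of the 42 collagens were lower than at P30, and 0 were higher. These were Col1a2, Col9a1, Col9a2 and Col18a1, a fibrillar chain, 2 chains of the FACIT type IX and type XVIII. Called here means that the log2 fold change was 0.5 or more in size and that p, adjusted by Benjamini-Hochberg over all 18628 genes in edgeR's quasi-likelihood test, did not pass 0.05, and by this rule 0.66% of all genes were lower and 0% higher at P34. The log2 fold change was negative in 35 of 42 members, the 4 called included, with a median of -0.61 against 0.00 over all genes tested. The median was -0.81 for fibrillar, -2.10 for network, -0.34 for FACIT and -0.56 for other collagens. At an unadjusted p of at most 0.05 with the same fold limit, 18 members were lower (5.42% of all genes) and 0 higher, and DESeq2's Wald test called 7 lower (1.58%), adding Col9a3, Col4a5 and Col4a6. The 3 P34 mice lay below the 3 P30 mice in 22 members, against 9.67% of all genes, and were the lowest 3 of all 12 mice in 7 (Col1a2, Col4a5, Col4a6, Col9a1, Col9a2, Col9a3 and Col18a1), against 1.76% of all genes. In whole retinas, fewer cells of a type and less RNA per cell cannot be told apart. Without P34 mouse 7 only Col9a1 and Col18a1 of the 4 were called (0.283% of all genes), without P38 mouse 12 all 7 named were (0.719%), and without both P30 mice 2 and 3 0 were (adjusted p 0.0639 to 0.283 for the 4). That last fit, chosen after seeing the data, has a single P30 mouse, which is assumed to vary like the other conditions, and its log2 fold changes were -2.12 (Col18a1), -1.22 (Col9a1), -1.46 (Col9a2) and -1.87 (Col1a2), while 0.131% of all genes were called lower. With sex as a covariate Col9a3 was called as well (0.762% of all genes).

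**Figure D3:**
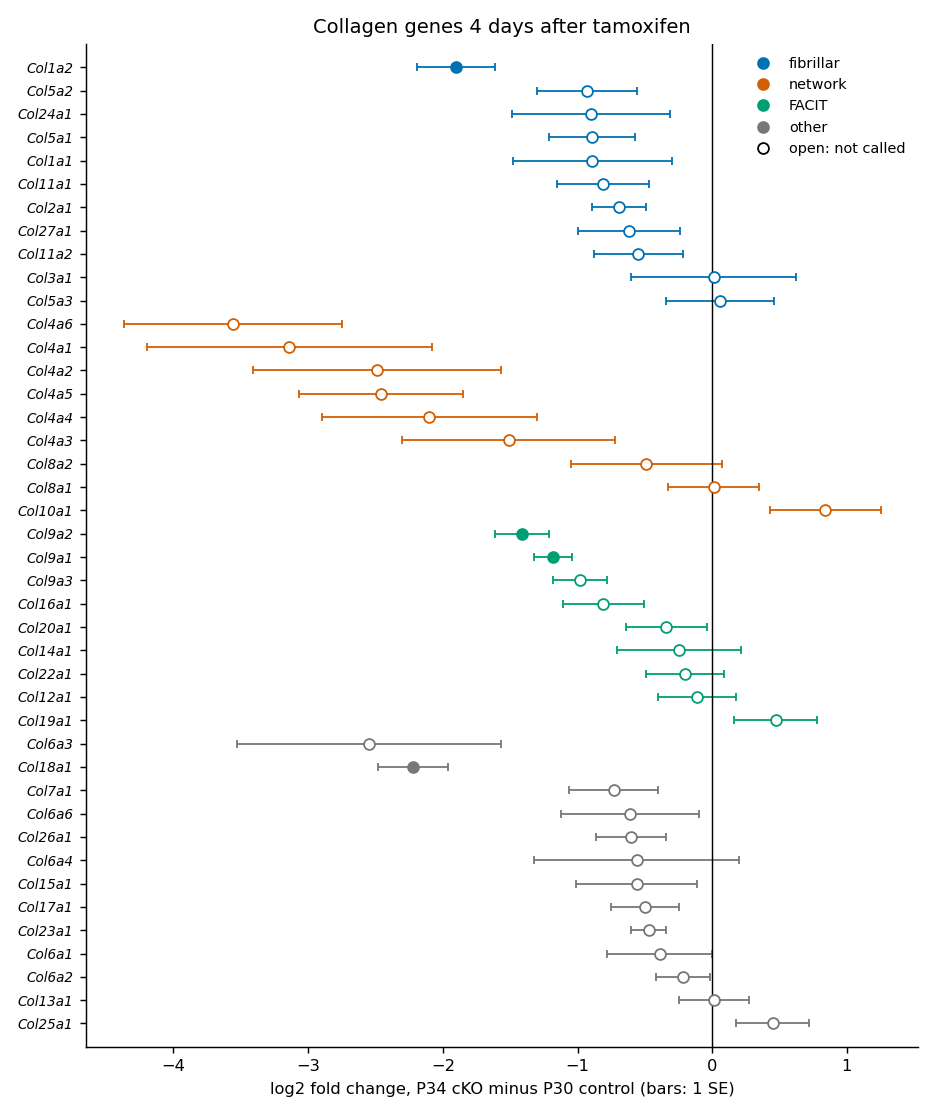
Log2 fold change of each collagen gene at P34 against P30, sorted within type, with bars of 1 standard error from the edgeR fit and filled points for the called genes. Col4a6 and Col4a1 lie lowest (-3.56 and -3.14) with standard errors of 0.81 and 1.06, whereas Col9a1, Col9a2 and Col18a1 have narrow ones.

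The 3 chains of type IX, which form a heterotrimer on the surface of type II fibrils, were all lower at P34 than in any mouse at another age. Col9a1 (ENSMUSG00000026147, chromosome 1 of GRCm38 from 24177610 to 24252684, plus strand) measured 86.6, 79.0 and 86.6 CPM in P30 mice 1, 2 and 3, with 85.0, 93.9 and 67.0 in the P32, 33.1, 38.2 and 39.8 in the P34 and 48.6, 61.6 and 58.1 in the P38 mice. The P34 values did not overlap those of any other age, and the P38 values lay between P34 and P30 without overlap on either side. From 84.1 ± 4.42 CPM (SD, n = 3) at P30 to 37.0 ± 3.54 CPM (SD, n = 3) at P34, the log2 fold change was -1.18 (SE 0.14, adjusted p = 0.00158, edgeR's quasi-likelihood F-test, Benjamini-Hochberg adjustment). At P32 it was -0.04 (SE 0.13) and at P38 -0.58 (SE 0.13, unadjusted p = 0.00101, adjusted p = 0.608). Col9a1 stayed called at P34 without any 1 mouse.

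Col9a2 (ENSMUSG00000028626, chromosome 4 from 121039385 to 121055322, plus strand) measured 21.9, 20.7 and 20.8 CPM in the P30 mice, with 21.5, 19.9 and 15.7 in the P32, 7.32, 9.26 and 7.24 in the P34 and 14, 19.6 and 10.9 in the P38 mice. Only the P34 mice were below 10 CPM. The log2 fold change at P34 against P30 was -1.41 (SE 0.20, adjusted p = 0.00604, edgeR), and it missed the threshold without P34 mouse 7 (adjusted p = 0.0539) or mouse 9 (adjusted p = 0.0555), with 0.00293 to 0.0555 over all mice left out in turn. Col9a3 (ENSMUSG00000027570, chromosome 2 from 180597790 to 180622189, plus strand) measured 22.9, 22.7 and 25.7 CPM in the P30 mice, with 32.6, 29.3 and 19.0 in the P32, 12.1, 12.3 and 11.6 in the P34 and 18.8, 25.5 and 15.9 in the P38 mice. Its P34 values were again the lowest 3, with a log2 fold change of -0.98 (SE 0.20) and an adjusted p of 0.0556 in edgeR, just outside the threshold. It passed without P32 mouse 4 (0.037) or 6 (0.0113) or P38 mouse 11 (0.0418) or 12 (0.0443), the range over all mice left out being 0.0113 to 0.251.

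**Figure D4:**
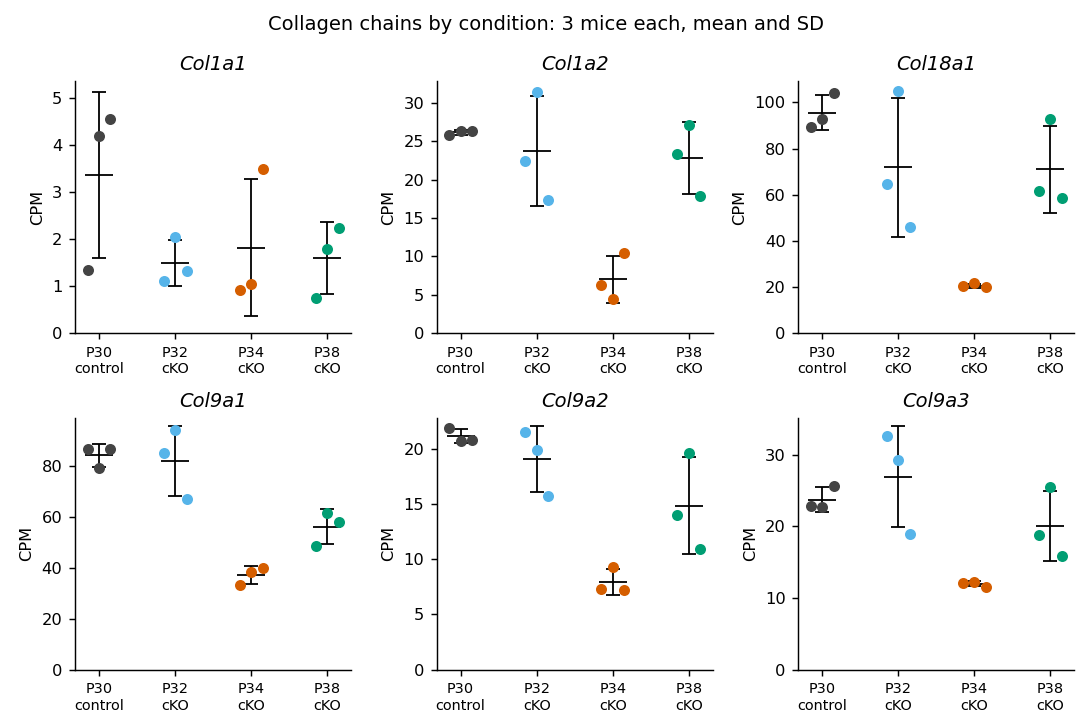
CPM of the chains of types I, XVIII and IX in the 3 mice of each condition (points), with the mean and SD. All panels but that of Col1a1 show the 3 P34 mice below the 9 others, and Col1a1 is high in P30 mice 2 and 3 and P34 mouse 9.

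The ratios between the type IX chains varied little over the 12 mice. Per kilobase of exon, Col9a1 was 1.92 to 3.36 times Col9a2 over the 12 mice and 2.52 to 3.36 times at P34, and Col9a3 was 0.839 to 1.33 times Col9a2. Col2a1, whose protein type IX binds, measured 32.4, 35.4 and 24.8 CPM in the P30 mice, with 26.5, 29.3 and 30.1 in the P32, 14.7, 22.6 and 20.1 in the P34 and 20.1, 32.3 and 23.5 in the P38 mice. Its P34 mice lay below the P30 mice but overlapped P38, with a log2 fold change of -0.69 (SE 0.20, adjusted p = 0.237, edgeR). Among the other FACITs, Col16a1 had a log2 fold change of -0.81 (SE 0.30, adjusted p = 0.368), and Col12a1, Col14a1, Col19a1, Col20a1 and Col22a1 ranged from -0.34 to 0.47, so that 2 of 9 FACITs were called.

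Of the fibrillar collagens, 1 of 11 was called at P34. Col1a2 (ENSMUSG00000029661, chromosome 6 from 4504814 to 4541544, plus strand) encodes the second chain of type I collagen, the main collagen of sclera, skin and bone. It measured 25.8, 26.3 and 26.4 CPM in the P30 mice, with 22.4, 31.5 and 17.3 in the P32, 6.32, 4.39 and 10.4 in the P34 and 23.3, 27.2 and 17.9 in the P38 mice. The 3 P34 mice were the lowest of all 12, and those of P32 and P38 overlapped each other and the P30 values. The log2 fold change against P30 was -1.90 at P34 (SE 0.29, adjusted p = 0.0117, edgeR), -0.14 at P32 (SE 0.28) and -0.19 at P38 (SE 0.28). The call at P34 was lost without P34 mouse 7 (adjusted p = 0.0871) or mouse 8 (0.0525), within a range of 0.0066 to 0.0871 over the mice left out, and the log2 fold change at P32 became 0.04 without mouse 6.

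Col1a1 (ENSMUSG00000001506, chromosome 11 from 94936224 to 94953042, plus strand), which joins Col1a2 in the type I trimer, was not called. It measured 1.34, 4.20 and 4.55 CPM in the P30 mice, with 1.11, 2.04 and 1.33 in the P32, 0.911, 1.05 and 3.49 in the P34 and 0.752, 1.78 and 2.24 in the P38 mice. All 4 ages overlapped, and the log2 fold change at P34 was -0.89 (SE 0.59, adjusted p = 0.624, edgeR), which turned to 0.43 against P30 mouse 1 alone (1.34 CPM). Per kilobase, Col1a1 was 0.061 to 0.633 times Col1a2, with the highest ratios in P34 mice 8 and 9 (0.455 and 0.633). Col3a1, which accompanies type I in fibroblasts, had 1.35 to 9.78 CPM, its highest value in P34 mouse 9. Skeletal muscle markers summed to 91.9 CPM in that mouse, 46.9 CPM in P30 mouse 2 and 67.9 CPM in P38 mouse 12 against 5.14 to 17.1 CPM in the others, and their part in the Col1a1 and Col3a1 values was not tested. The other fibrillar genes had log2 fold changes at P34 from -0.93 (Col5a2) to 0.06 (Col5a3), and Col5a1 (-0.89), Col5a2 and Col11a1 (-0.81) passed only at an unadjusted p.

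Col18a1 (ENSMUSG00000001435, chromosome 10 from 77052178 to 77166548, minus strand) had the largest fall of the called collagens. It measured 89.5, 92.9 and 104 CPM in the P30 mice, with 64.7, 105 and 45.9 in the P32, 20.2, 21.5 and 19.9 in the P34 and 61.7, 92.8 and 58.4 in the P38 mice. The P34 mice differed from each other by less than 2 CPM, and the lowest of the other 9 had 45.9 CPM. The log2 fold change at P34 was -2.22 (SE 0.26, adjusted p = 0.00201, edgeR), a 4.65-fold fall, and it stayed called without any 1 mouse (adjusted p 0.000288 to 0.0221). At P32 and P38 it was -0.41 and -0.43 (SE 0.25 for both), neither of them called.

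Ciliary epithelium markers except Aqp1, and Fbln1, were lowest in the same 3 P34 mice as the 4 called collagens and Col9a3. Aqp1 was lowest in P32 mouse 4 (120 CPM, against 128 to 142 CPM at P34). At P34 against P30, all 6 ciliary epithelium markers measured had all 3 P34 mice below all 3 P30 mice (9.67% of all genes). Of them, 3 were called lower (0.66% of all genes). The median log2 fold change was -1.52, and Optc fell by 4.84, while Aqp1 (-0.33, SE 0.19) and Car14 (-0.37, SE 0.13) moved least. In the fibroblast list 1 of 6 genes tested was called, Fbln1 (fibulin 1), with 79.3 to 82.0 CPM at P30, 31.9 to 89.8 at P32, 1.62 to 3.73 at P34 and 37.0 to 54.6 at P38. Without Fbln1 that list summed to 35.7 to 59.5 CPM at P30, 18.8 to 37.9 at P32, 20.3 to 29.4 at P34 and 29.5 to 63.4 at P38, so that the P34 mice lay below the P30 and P38 mice but overlapped P32. Pdgfra (log2 fold change -0.42), Mfap5 (-0.35) and Pi16 (0.21) were not called at P34, nor were Dcn (-2.94) and Lum (-3.33), which passed only at an unadjusted p and whose levels were highest in P30 mice 2 and 3 (23.7 and 19.0 CPM of Dcn, against 0.493 to 4.50 CPM in the other 10 mice). No defining marker of the ciliary epithelium was at 0 in any mouse, and of the fibroblast list only Dpt was at 0, in 3 libraries. Within P32, Col18a1, Optc and Fbln1 were each lowest in mouse 6. The part of ciliary epithelium, of cells with Fbln1 or of lens and cornea in these changes was not tested.

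Of the other collagens, 1 of 13 (Col18a1) was called at P34. Col23a1, the most abundant of them, measured 106, 111 and 100 CPM in the P30 mice, with 98.3, 120 and 107 in the P32, 69.3, 82.1 and 77.1 in the P34 and 67.0, 94.1 and 95.1 in the P38 mice. All P34 mice lay below all P30 and P32 mice, but the log2 fold change against P30 was -0.47 (SE 0.13, adjusted p = 0.229, edgeR), under the fold limit. Col25a1, a transmembrane collagen of neurons, went the other way with 0.45 (SE 0.27, adjusted p = 0.597), its P34 values of 21.0 to 25.7 CPM lying above the 13.2 to 20.3 CPM of P30. P34 mouse 7 had the lowest level of 14 of the 42 members, P38 mouse 10 of 8 and P32 mouse 4 of 6. The same mice had the highest level of 1, 6 and 1 members, and the shares over all genes were not computed for these counts. Those 3 libraries also had the smallest shares of reads on no annotated gene (6.53, 7.53 and 8.67%, against 9.95 to 13.7% in the others), and the part of this in the collagen levels was not tested.

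Type IV collagen varied widely between mice, and none of its 6 chains was called by edgeR at P34 (5 were lower at an unadjusted p, and DESeq2 called 2, Col4a5 and Col4a6). Col4a1, which with Col4a2 forms the common type IV trimer, measured 422, 47.9 and 489 CPM in the P30 mice, with 373, 529 and 38.1 in the P32, 31.4, 39.0 and 38.5 in the P34 and 835, 657 and 60.4 in the P38 mice. Mice of P30, P32 and P38 thus fell on both sides, with P30 mouse 2, P32 mouse 6 and P38 mouse 12 near the 3 P34 mice. The log2 fold changes at P34 against P30 were -3.14 (SE 1.06) for Col4a1, -2.49 (SE 0.92) for Col4a2, -1.51 (SE 0.79) for Col4a3, -2.10 (SE 0.80) for Col4a4, -2.46 (SE 0.61) for Col4a5 and -3.56 (SE 0.81) for Col4a6. Their adjusted p-values in edgeR were 0.0952 (Col4a6), 0.143 (Col4a5) and 0.318 to 0.538 (Col4a1 to Col4a4). Col6a3, a beaded-filament chain, split the mice in the same way with 0.789 to 1.80 CPM in mice 2, 6, 7, 8, 9 and 12 and 6.92 to 21.0 CPM in the others (log2 fold change at P34 -2.55, SE 0.98, adjusted p = 0.394). Its partner chain Col6a2 stayed at 7.08 to 11.8 CPM, so that the ratio of Col6a3 to Col6a2 per kilobase ran from 0.0564 to 1.24.

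Sums of the lens and cornea lists were high and low in nearly the same mice as type IV. Mice 1, 3, 4, 5, 10 and 11, with 373 to 835 CPM of Col4a1, had lens sums of 4720 to 39470 CPM and cornea and conjunctiva sums of 16.9 to 53.6 CPM. The other 6, with 31.4 to 60.4 CPM of Col4a1, had lens sums of 234 to 640 CPM except for mouse 12 with 5038 CPM, and cornea and conjunctiva sums of 1.27 to 5.43 CPM. In mice 3, 10 and 11, Aldh3a1 made up 14, 31.1 and 18.2 CPM of cornea and conjunctiva sums of 16.9, 34.2 and 20.1 CPM. Krt12 had 0.327, 0.873 and 0.305 CPM there, within the 0.221 to 2.03 CPM of the 6 mice with low type IV. All 8 lens markers had negative log2 fold changes at P34 against P30 (median -4.97). Of them, 0 were called by edgeR (0.66% of all genes lower) and 8 were lower at an unadjusted p (5.42% of all genes). In the cornea and conjunctiva list 1 of 5 genes tested was called lower (0.66% of all genes). It was Dsg1a (desmoglein 1 alpha, a cell adhesion protein of epithelia), with 0 to 0.0276 CPM in the P34 mice and 0.518 to 2.05 CPM in the other 9. Dsg1a was thus low in the P34 mice alone, as the called collagens were, and not in mice 2, 6 and 12. The part of lens and cornea in the type IV values was not tested. Col4a5 and Col4a6, singled out after their values were seen, differed from Col4a3 and Col4a4 in P30 mouse 2. That mouse had 37.9 and 14.9 CPM against 7.98 to 15.6 and 2.26 to 2.88 CPM at P34, while its 8.72 and 8.50 CPM of Col4a3 and Col4a4 lay at or below the P34 values of 10.9 to 19.6 and near those of 7.99 to 9.02 CPM.

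**Figure D5:**
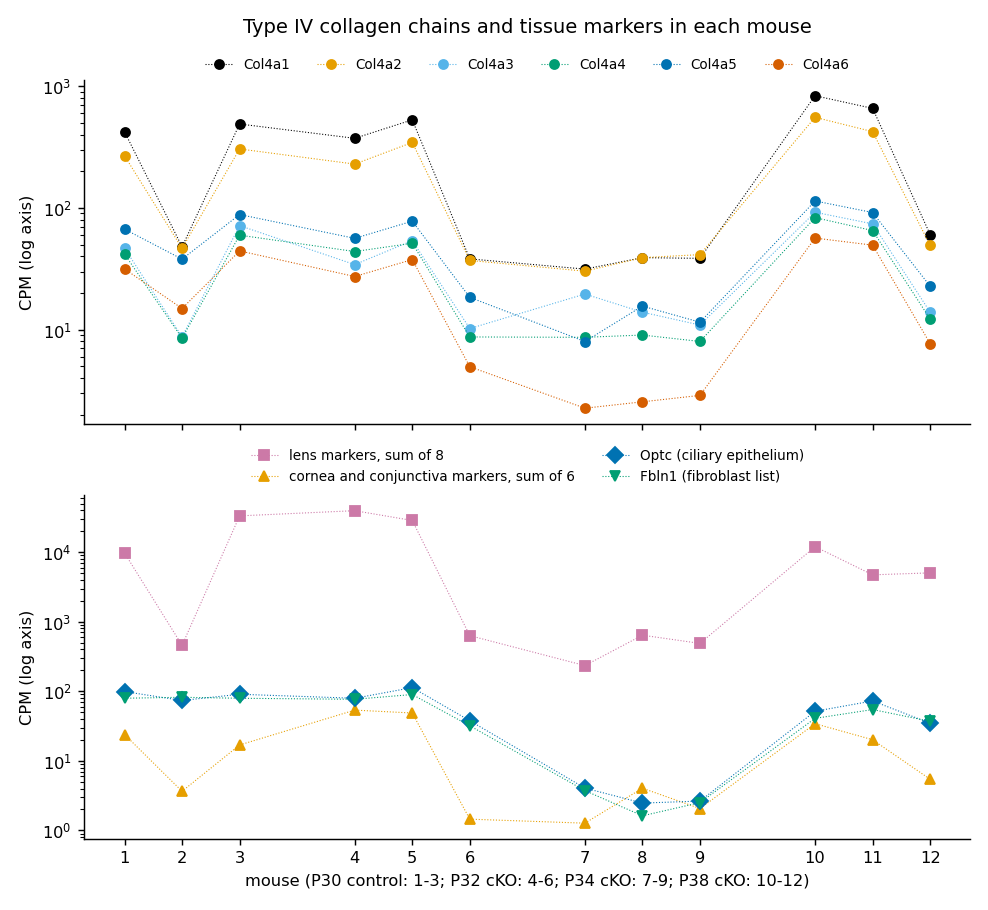
CPM on log axes in each mouse of the 6 type IV chains (top) and of lens and cornea marker sums, Optc and Fbln1 (bottom), with dotted lines that only join the points of a gene. Col4a1 is 373 to 835 CPM in mice 1, 3, 4, 5, 10 and 11 and 31.4 to 60.4 CPM in the other 6, and Optc is at most 4.06 CPM in the P34 mice alone.

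The type IV genes lie in head-to-head pairs. The starts of Col4a1 and Col4a2 on chromosome 8 are 21 bases apart, those of Col4a3 and Col4a4 on chromosome 1 are 72 and those of Col4a5 and Col4a6 on chromosome X are 1309. Over the 12 mice Col4a1 varied 26.6-fold, while its ratio to Col4a2 per kilobase varied only from 0.828 to 1.44. The 6 mice with high type IV had 1.33 to 1.44 and the others 0.828 to 1.09. The ratio of Col4a3 to Col4a4 ran from 0.832 to 2.41, the highest in P34 mouse 7, and that of Col4a5 to Col4a6 from 2.20 to 7.26, with 4.18 to 7.26 at P34. Type VIII, the hexagonal network of Descemet's membrane, was not called, with log2 fold changes at P34 of 0.01 (SE 0.34) for Col8a1 and -0.49 (SE 0.56) for Col8a2, and Col8a1 never fell below 11.9 CPM.

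At P32 and at P38, 0 of 42 collagens were called against P30 in either direction by edgeR, as were 0% of all genes. At P32, 1 member (Col6a4, with 0.284 to 3.63 CPM over the 12 mice) was lower at an unadjusted p (1.77% of all genes), and DESeq2 called 0 members lower (0.0827% of all genes). At P38, Col9a1, Col9a2 and Col26a1 were lower at an unadjusted p (2.66% of all genes), and DESeq2 called 0 (0.193%). The median log2 fold change of the collagens was -0.15 at P32 and -0.24 at P38, against -0.01 over all genes at both ages.

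The contrasts between cKO ages do not use the P30 levels, although the P30 mice enter the fit's estimate of the spread, and all 3 contrasts at P34 share the P34 mice. At P34 against P32, 5 collagens were lower (0.242% of all genes) and 0 higher (0%), namely Col9a1 (log2 fold change -1.15, SE 0.14, adjusted p = 0.00388), Col18a1 (-1.81, SE 0.26, 0.0115), Col9a2 (-1.26, SE 0.20, 0.0242), Col1a2 (-1.76, SE 0.29, 0.0335) and Col9a3 (-1.16, SE 0.20, 0.0415), by edgeR. At an unadjusted p, 16 were lower (8.93% of all genes) and 2, Col19a1 and Col25a1, higher (5.49%), and DESeq2 called 11 lower (4.77%). With only the P32 and P34 mice in the fit 0 were called (adjusted p 0.0905 to 0.214 for the 5), and all-gene calls fell to 0.062%. The count was 3 without P30 mouse 1, 2 or 3 or P38 mouse 10 (0.189 to 0.21% of all genes), 2 without mouse 4, 5 or 9 (0.0995 to 0.211%), 1 (Col9a1) without mouse 7 or 8 (0.105 and 0.0736% of all genes), and 13 without P32 mouse 6, which then took in Col4a1, Col4a2, Col4a4, Col4a5, Col4a6 and Col6a3. Over all genes the calls without mouse 6 also rose, to 6.87% lower and 7.43% higher.

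At P38 against P34, 2 collagens were higher (0.199% of all genes) and 0 lower (0%), Col18a1 with a log2 fold change of 1.79 (SE 0.26, adjusted p = 0.015) and Col1a2 with 1.70 (SE 0.29, adjusted p = 0.045), by edgeR. The type IX chains had 0.60 (Col9a1), 0.91 (Col9a2) and 0.74 (Col9a3), with adjusted p-values of 0.214, 0.20 and 0.432. At an unadjusted p, 12 were higher (3.01% of all genes), and DESeq2 called 6 (0.661%), among them Col9a1 and Col9a2. With only the P34 and P38 mice in the fit, Col18a1 stayed called and Col1a2 did not (adjusted p = 0.0767, edgeR), with 0.396% of all genes higher. The 2 calls of the main fit became 1 without mouse 1, 2, 3, 4, 9 or 10, 0 without mouse 7, 8 or 11 and 5 without P38 mouse 12. All-gene calls moved as well, to 0.0786 to 0.216% for the first 6 of these mice, to 0.0629, 0.0421 and 0.0839% without mouse 7, 8 or 11 and to 0.262% without mouse 12. Optc (4.11) and Fbln1 (4.08) also rose from P34 to P38, and their part in the collagen values was not tested. At P38 against P32, 0 members were called lower or higher by edgeR (0% of all genes for both), 2 were lower at an unadjusted p (Col9a1 and Col17a1, 6.23% of all genes), and DESeq2 called 1, Col9a1 (2.41%).

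Genes that make, cut, bind and degrade collagen were taken as 4 further lists. At P34 against P30, 0.66% of all genes were called lower by edgeR, and 5.42% were lower at an unadjusted p. Of 20 genes of chain maturation, which hydroxylate, fold and export procollagen, 0 were called in that contrast (6 lower at an unadjusted p), with a median log2 fold change of -0.37. P4hb, the shared subunit of the prolyl hydroxylases, measured 224, 210 and 199 CPM in the P30 mice, with 248, 211 and 213 in the P32, 259, 202 and 224 in the P34 and 290, 213 and 224 in the P38 mice. Mia3, which loads procollagen into transport carriers, measured 111, 110 and 113 CPM in the P30 mice, with 104, 110 and 119 in the P32, 128, 121 and 125 in the P34 and 122, 119 and 110 in the P38 mice. The ages overlapped for P4hb (log2 fold change at P34 0.11, SE 0.14), while the P34 mice lay above the P30 mice for Mia3 by a small, uncalled amount (0.16, SE 0.08, adjusted p = 0.52, edgeR). Of 11 propeptide and crosslink genes tested, 1 was called lower (5 lower at an unadjusted p). It was Lox (lysyl oxidase, which starts the crosslinks), with 0.899, 1.55 and 1.13 CPM in the P30, 0.39, 1.09 and 0.394 in the P32, 0.193, 0.098 and 0.305 in the P34 and 0.485, 0.281 and 0.509 in the P38 mice. The P34 values of Lox were below all P30 values but overlapped P38, and the log2 fold change was -2.61 (SE 0.51, adjusted p = 0.0442). Bmp1, which cuts the C-terminal propeptides, measured 25.3, 20.4 and 25.2 CPM in the P30 mice, with 26.2, 31.4 and 22.5 in the P32, 16.5, 19.4 and 16.5 in the P34 and 21.9, 25.2 and 20.0 in the P38 mice. Adamts3, which cuts the N-terminal one, measured 16.3, 28.1 and 31.1 CPM in the P30 mice, with 5.04, 17.9 and 23.9 in the P32, 23.6, 34.7 and 30.9 in the P34 and 36.9, 44.7 and 35.2 in the P38 mice. The P34 mice were the lowest 3 for Bmp1 (log2 fold change -0.44, SE 0.15, adjusted p = 0.314, edgeR) and overlapped P30 for Adamts3 (0.24, SE 0.41), and neither was called.

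Of 9 collagen receptors tested, Mrc2 (Endo180, which takes up collagen fragments) was called lower at P34 (0.66% of all genes), and 0 were higher. At an unadjusted p, 3 were lower (5.42% of all genes). Mrc2 measured 3.52, 6.70 and 7.64 CPM in the P30 mice, with 2.70, 4.29 and 2.14 in the P32, 0.939, 0.882 and 1.15 in the P34 and 2.47, 3.31 and 2.65 in the P38 mice. The P34 mice were the lowest 3 of 12, with a log2 fold change of -2.58 (SE 0.34, adjusted p = 0.00348, edgeR). Ddr1, a collagen-binding kinase, measured 111, 116 and 122 CPM in the P30 mice, with 90.8, 118 and 109 in the P32, 99.3, 92.9 and 106 in the P34 and 96.9, 121 and 96.6 in the P38 mice. Itgb1, the shared chain of the collagen-binding integrins, measured 80.0, 67.0 and 91.9 CPM in the P30 mice, with 60.4, 74.2 and 59.6 in the P32, 68.3, 59.3 and 61.5 in the P34 and 99.3, 80.1 and 65.1 in the P38 mice. The P34 mice lay below the P30 mice for Ddr1 (-0.23, SE 0.12) and overlapped them for Itgb1 (-0.34, SE 0.16), without a call for either. Of 4 degradation genes tested, 0 were called at P34 by edgeR (2 lower at an unadjusted p), with a median log2 fold change of -0.42. Mmp9, a gelatinase, measured 20.2, 18.8 and 26.1 CPM in the P30 mice, with 20.6, 23.9 and 24.3 in the P32, 38.1, 21.9 and 28.1 in the P34 and 23.8, 27.7 and 24.3 in the P38 mice. Mmp14, a membrane-bound collagenase, measured 16.6, 21.5 and 16 CPM in the P30 mice, with 16.3, 14.7 and 12.8 in the P32, 12, 12.4 and 13.6 in the P34 and 9.46, 13.6 and 11.4 in the P38 mice. The P34 mice overlapped P30 for Mmp9 (0.44, SE 0.19) and lay below it for Mmp14 (-0.51, SE 0.16, adjusted p = 0.29, edgeR). At P34 against P32 and at P38 against P34, 0 genes of these 4 lists were called by edgeR, while Mrc2 (1.51, SE 0.33) was among those higher at P38 at an unadjusted p.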

How the data were processed

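RNA from 12 whole retinas (1 eye of each of 12 mice, 3 per condition) was sequenced as 50 bp single reads from stranded mRNA libraries. Per the labels and the methods, the authors mapped reads to mm10 with STAR 2.5.3a and counted them with HTSeq 0.6.1p1 (union mode, Ensembl 93), and the deposited counts per gene are whole numbers without normalization; the strand option is not given in the sources used here. Reads with several positions were not counted, and 0.646 to 0.696% of reads were ambiguous between genes. Symbols, positions and exon lengths came from GENCODE M21 (99.9% of genes matched), and promoters from RefSeq (GRCm38.p6).

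Counts were TMM-scaled and tested with edgeR 4.0.16 in R 4.3.3 by the quasi-likelihood test, with all 12 mice in 1 fit, 6 contrasts, filterByExpr (18628 genes kept) and Benjamini-Hochberg adjustment. The standard error is the log2 fold change over the square root of F. The 5 summary lines of each count file stayed out. Totals of 29701483 to 60145034 counts set a floor of 3 counts at 0.0499 to 0.101 CPM, for counting error only. The scripts were tested on simulated counts. Members and lists were chosen with earlier results of these data known. Values per mouse are given for called collagens, chains of the same type, the most abundant member of each type, and the called and the 2 most abundant genes of each of 4 related lists; others by range. DESeq2 1.42.0, other filters and scalings, a robust fit, pairwise fits, sex as a covariate and leaving out mice were the alternatives.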

Additional observations from a re-analysis of the deposited data

Results flagged for a closer look

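The effect at P34 differed from that at another cKO age in 5 collagens by the contrast between the ages (edgeR's quasi-likelihood test, Benjamini-Hochberg adjustment). At P34 against P32 the log2 fold change was -1.81 for Col18a1, -1.15 for Col9a1, -1.16 for Col9a3, -1.26 for Col9a2 and -1.76 for Col1a2. All 3 P34 mice lay below all 3 P32 mice in each, as in 2527 of all 18628 genes. At P38 against P34 the log2 fold change was 1.79 for Col18a1 and 1.70 for Col1a2. All 3 P38 mice lay above all 3 P34 mice in both, as in 999 of all 18628 genes. These collagens had been picked by the same contrasts, so the lack of overlap is no separate support. The ages share the fit's estimate of the spread. With only the P32 and P34 mice in the fit, the 5 collagens of that contrast had adjusted p-values of 0.0905 to 0.214. With only the P34 and P38 mice, Col18a1 stayed called and Col1a2 did not (adjusted p = 0.0767, edgeR). Optc and Fbln1 moved the same way in both contrasts, and their part was not tested.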

How the results depend on the processing

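Counts of called collagens depended on the fit, on the threshold and on single mice. With unadjusted p-values, 18 were lower at P34 (5.42% of all genes), 1 at P32 (1.77%) and 3 at P38 (2.66%), each against P30. At P34 against P32, 16 were lower (8.93%) and 2 higher (5.49%). At P38 against P34, 12 were higher (3.01%), and at P38 against P32, 2 were lower (6.23%). Without a filter on low counts the counts were 7 (P34 against P30), 9 (P34 against P32) and 7 (P38 against P34), where all-gene calls also rose (to 0.865, 1.25 and 0.33%). With DESeq2 they were 7, 11 and 6 (1.58, 4.77 and 0.661% of all genes), with 1 at P38 against P32 (2.41%). With only the compared conditions in the fit they were 7, 0 and 1 (1.27, 0.062 and 0.396% of all genes), and without P30 mice 2 and 3 (added after seeing the data, with a single P30 mouse left) 0, 2 and 0 (0.131, 0.167 and 0.121% of all genes). Leaving out mice in turn gave 2 (without mouse 7, 0.283% of all genes) to 7 (without mouse 12, 0.719%) at P34 against P30. At P34 against P32 it gave 1 to 13 lower and 0 to 2 higher (13 and 2 without mouse 6, with 6.87% of all genes lower and 7.43% higher). At P38 against P34 it gave 0 (without mouse 7, 8 or 11, 0.0421 to 0.0839% of all genes) to 5 (without mouse 12, 0.262%). At P38 against P32 it gave 0 to 2 lower (2 without mouse 6, with 3.69% of all genes lower). The cause was not tested, beyond the smaller number of samples in those fits. Col9a1 and Col18a1 at P34 against P30 passed under each filter, scaling, tool and covariate tried and without any 1 mouse, and missed the threshold against the single P30 mouse 1 with log2 fold changes of -1.22 and -2.12. The sign turned for Col1a1 at P34 (0.43 against P30 mouse 1 alone), for Col1a2 at P32 (-0.40 to 0.04 over the mice left out) and for Col9a1 at P32 (-0.15 to 0.09). No paired analysis was possible because the mouse numbers 1 to 12 are not shared between conditions.

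With 3 mice per condition, p-values of the main fit set the difference between condition means against a spread estimated from these 12 mice. Every P30 mouse was female, and sex, age, tamoxifen and dissected tissue were not balanced over the conditions. Collagens with adjusted p-values above the threshold are not shown to be unchanged, and the type IV errors (SE 0.61 to 1.06) left 2.85-fold to 11.8-fold differences uncalled.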
